A study of Homo sapiens with 4 samples.

Results

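Genes that encode collagen hydroxylases and lysyl oxidases were followed in the RNA of U251 and U87 cells, both from glioblastoma. The members were the 10 genes named LOX, LOXL1, LOXL2, LOXL3, LOXL4, PLOD1, PLOD2, PLOD3, P4HA1 and P4HA2, and all 10 were found among the 58735 genes measured. For each line there was 1 Control library and 1 library of cells given Bru at its IC50 for 48 h, which makes 4 libraries. The vehicle of the sequenced Control cells and the concentration of Bru in each line are not given in the sources used here. In the paper's time course of viability, U251 cells were given a higher concentration than U87 cells. Bru is brusatol, a quassinoid from Brucea plants, and both are established human cell lines grown as cultures, without the stroma or vessels of a tumour. Each condition had 1 library, no difference between libraries has a replicate check, and no p-value is given between conditions. The labels name no passage, clone or culture for a library.

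Collagen and elastin are modified by these enzymes before and after secretion. In the endoplasmic reticulum, the prolyl 4-hydroxylases, made of an alpha subunit such as P4HA1 or P4HA2 and the shared subunit P4HB, hydroxylate proline and thereby stabilise the collagen triple helix, and the lysyl hydroxylases PLOD1, PLOD2 and PLOD3 hydroxylate lysine. Outside the cell, the copper enzymes LOX and LOXL1 to LOXL4 oxidise lysine and hydroxylysine to aldehydes, from which the cross-links of collagen and elastin fibres form. PLOD2 hydroxylates the ends of the collagen chains, where cross-links start. LOX, PLOD2 and P4HA1 are among the genes known to be induced under low oxygen.

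In U251, all 10 genes had lower FPKM (fragments per kilobase of gene and per fixed number of fragments, a level scaled to gene length and library size) in Bru than in Control, and 4 of them fell more than 2-fold, namely LOXL1, LOXL2, LOXL3 and PLOD1. The same direction held for 52.1% of the 12949 genes tested, and 5.44% of them fell more than 2-fold. In U87, 9 of the 10 genes were lower in Bru, beside 56.7% of all genes tested, but none passed 2-fold in either direction, beside 1.41% of all genes tested that fell past it. The exception in U87 was PLOD2, which was slightly higher in Bru. The median log2 ratio of Bru to Control over the 10 genes was -0.66 in U251 and -0.40 in U87, where the medians of all genes tested were -0.03 and -0.04. A pseudocount of 0.1 was added to each FPKM before the log2 ratio was taken. Genes tested had a mean FPKM of 1 or more, a filter that all 10 genes passed, LOXL4 only through its level in U251 and LOXL3 only through its level in U87. Intervals in the text are 95% exact intervals of the ratio without this addition, from the reads recovered from the FPKM. They cover counting error only and compare libraries, not conditions.

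**Figure D1:**
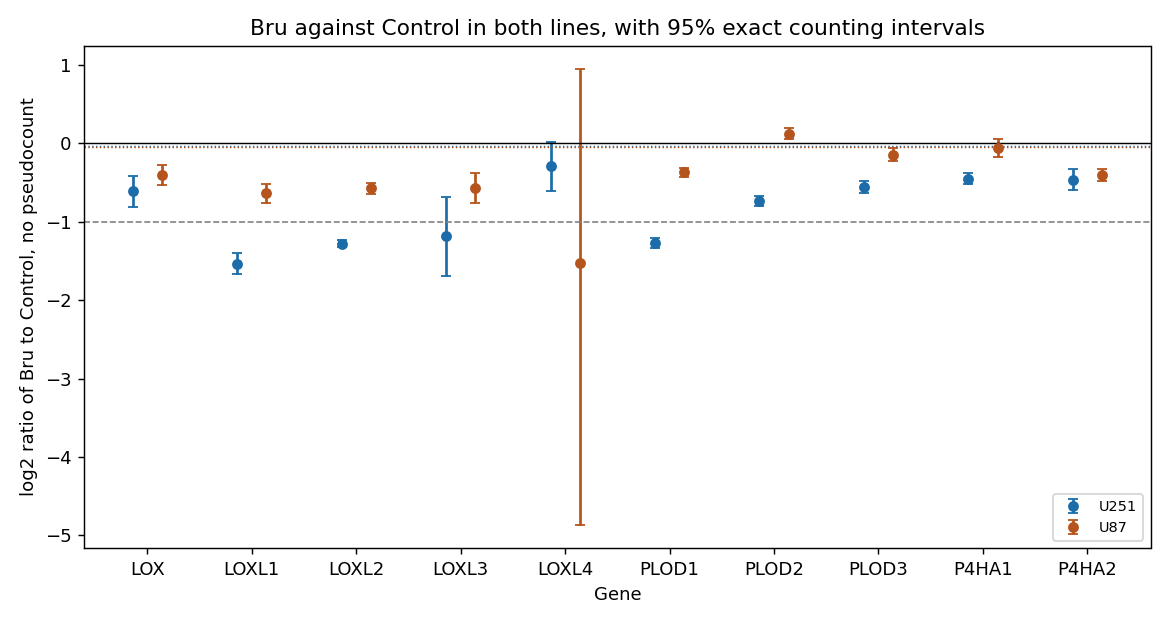
Log2 ratio of Bru to Control (vertical axis, without a pseudocount) for each of the 10 genes in U251 (blue) and U87 (orange), with bars for the 95% exact counting interval, dotted lines for the median of all genes tested and a dashed line at 2-fold lower. All U251 points lie below 0, 4 of them below -1, whereas PLOD2 in U87 lies above 0 and LOXL4 in U87, with 6 and 2 reads, has an interval from -4.87 to 0.95.

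The interval of the ratio lay below 0 for 9 of the 10 genes in U251, with LOXL4 as the exception, where 35.9% of all genes tested had such an interval. It lay above 0 for none of them in U251, beside 30.9% of all genes tested. In U87 it lay below 0 for 7 genes, beside 28.0% of all genes tested. It held 0 for LOXL4 and P4HA1 in U87 and lay above 0 for PLOD2, as for 15.7% of all genes tested. Each library pools many cells, so less RNA of a gene per cell and fewer cells that express it cannot be told apart. An FPKM is a share of its library, so a change in the total RNA per cell is not seen.

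The libraries held between 17083896 and 21453561 reads on genes, and 3 reads on a gene of 1 kilobase corresponded to an FPKM of 0.143 to 0.172. The labelled cells were checked with marker genes. VIM and CD44, which mesenchymal glioma cells express, were high in all 4 libraries, with FPKM from 606 to 701 for VIM and from 94.5 to 125 for CD44. The astrocyte gene GFAP was low, from 0.147 to 2.42, S100B had 9 reads in U251 Control and 0 in the other libraries, and OLIG2 did not exceed 1.05. NES, an intermediate filament gene of neural progenitors, was at 125 in U251 Control and 50.6 in U251 Bru but at 1.46 and 0.569 in U87. Of 4 markers of other cell types (PTPRC, PECAM1, EPCAM and ALB), none exceeded an FPKM of 0.5 in any library.

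The coordinates in the files are those of GENCODE release 29 on GRCh38. LOX (ENSG00000113083) is on chromosome 5 from 122063195 to 122078360 and LOXL1 (ENSG00000129038) on chromosome 15 from 73925989 to 73952137. LOXL2 (ENSG00000134013) is on chromosome 8 from 23297189 to 23425328, LOXL3 (ENSG00000115318) on chromosome 2 from 74532414 to 74555690 and LOXL4 (ENSG00000138131) on chromosome 10 from 98247690 to 98268250. PLOD1 (ENSG00000083444) is on chromosome 1 from 11934205 to 11975538, PLOD2 (ENSG00000152952) on chromosome 3 from 146069440 to 146163653 and PLOD3 (ENSG00000106397) on chromosome 7 from 101205977 to 101218420. P4HA1 (ENSG00000122884) is on chromosome 10 from 73007217 to 73096974 and P4HA2 (ENSG00000072682) on chromosome 5 from 132191838 to 132295315. LOXL1 and PLOD1 are on the plus strand and the others on the minus strand. No 50-base stretch of a member's transcripts was shared with another member, and at most 1.42% of the stretches of a member (LOXL2) were shared with any other gene.

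**Figure D2:**
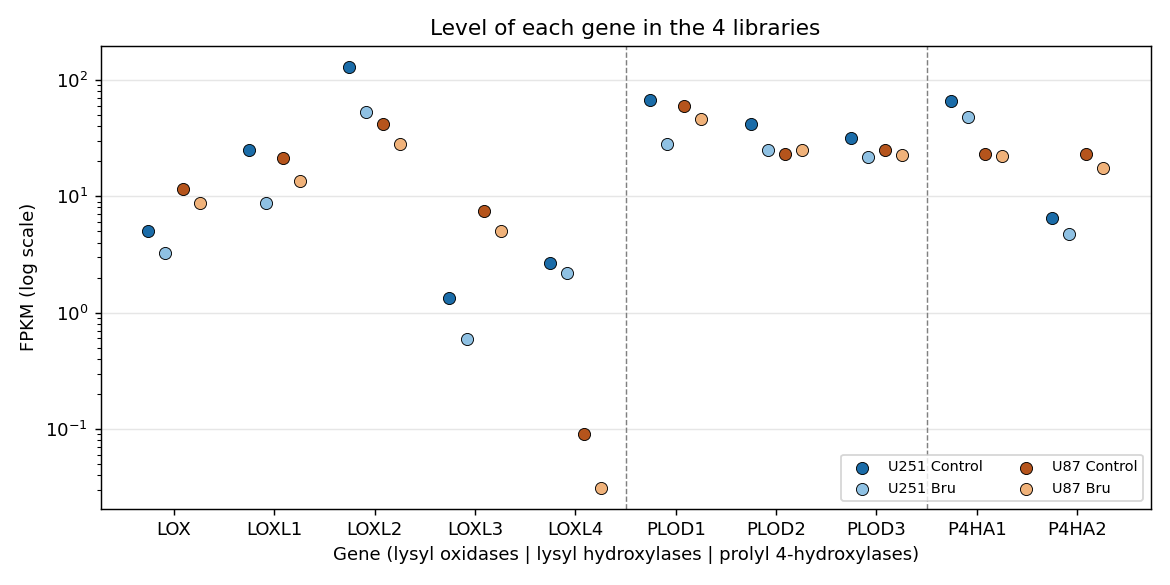
FPKM (vertical log axis) of the 10 genes in the 4 libraries, 1 point per library, with dashed lines between the 3 families. LOXL2 in U251 Control is the highest point at 129 and LOXL4 in U87 Bru the lowest at 0.0315, and within U251 every Bru point is under its Control point.

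Among the lysyl oxidases, LOXL2 had the highest level in every library. It stood at an FPKM of 129 in untreated and 53.1 in Bru-treated U251 cells, and at 41.9 and 28.2 in U87 cells. Both U251 libraries were above both U87 libraries. LOXL2 fell in U251 with a log2 ratio of -1.28 (interval from -1.32 to -1.23), which left 41.3% of the Control level, and its log2 ratio in U87 was -0.57 (from -0.64 to -0.50). LOXL1, which is known for its part in elastic fibre assembly, stood at 25.1 in untreated and 8.69 in Bru-treated U251 cells, and at 21.2 and 13.6 in U87 cells. The Control libraries of both lines lay within a log2 ratio of -0.25, and U251 Bru was the lowest. LOXL1 fell in U251 with a log2 ratio of -1.52 (from -1.67 to -1.40), the lowest of the 10 genes, and only 1.82% of the genes tested had a lower ratio. Its log2 ratio in U87 was -0.63 (from -0.76 to -0.51), again the lowest of the 10. Of the exon bases of LOXL1, 9.21% overlap the antisense gene LOXL1-AS1, and the kit named in the labels does not mark strand.

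LOX, the founding member of the family, had an FPKM of 4.98 without and 3.27 with Bru in U251, against 11.5 and 8.67 in U87. Its level was higher in both U87 libraries than in both U251 libraries. Bru to Control gave a log2 ratio of -0.59 in U251 (from -0.80 to -0.41) and -0.40 in U87 (from -0.53 to -0.27), so that LOX was lower in Bru in both lines by ratios that did not differ beyond counting error. SRFBP1, on the other strand, overlaps 2.49% of the exon bases of LOX.

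LOXL3 and LOXL4 were the least expressed members. LOXL3 had 123 reads without Bru (FPKM 1.34) and 48 reads with it (0.594) in U251, against 585 reads (7.42) and 379 reads (4.99) in U87. It was a low gene in U251 and an intermediate one in U87. Its log2 ratio was -1.06 in U251 (interval without the pseudocount from -1.69 to -0.69) and -0.56 in U87 (from -0.76 to -0.38). LOXL3 passed 2-fold in U251 by a small margin, and its ratio there was -0.56 with a pseudocount of 1. Its exons share 625 bases (14.3%) with HTRA2 and 216 bases with DOK1 on the other strand. LOXL4 had 205 reads without Bru (FPKM 2.68) and 148 reads with it (2.19) in U251, against 6 reads (0.0909) and 2 reads (0.0315) in U87. It was therefore near the limit of detection in U87. For LOXL4 the log2 ratio was -0.28 in U251 (from -0.61 to 0.02), and in U87 it was -0.54 with the pseudocount and -1.53 without it (from -4.87 to 0.95), a change not detectable at this depth.

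The sequences before the starts of LOXL1 and LOX are shown because these paralogs differed in how far they fell in U251. By symbol, 9 of the 10 genes, all but LOXL2, were matched in a RefSeq table of promoters (GRCh38.p14). It runs from 250 bases before to 50 bases after a start. The motifs searched on both strands were ACGTG and GCGTG, core motifs of hypoxia response elements, with overlapping matches counted separately. Of 35116 promoters of 300 bases, 21.4% held ACGTG, 36.5% held GCGTG, 48.4% held either and 23.1% held either at least 2 times. Of the 12 listed promoters of the 9 genes, 7 held either motif, and these belonged to 5 genes. Those of LOX other than its first overlap each other and hold the same matches, which thus recur in the count. The first promoter of LOX (chr5:122078210-122078509, minus strand) held ACGTG 4 times, and that of LOXL1 (chr15:73926212-73926511, plus strand) held neither. LOXL1, LOXL4, PLOD3 and P4HA2 had no match in a promoter, beside log2 ratios in U251 of -1.52, -0.28, -0.55 and -0.45. LOX, LOXL3, PLOD1, PLOD2 and P4HA1 had a match, beside log2 ratios of -0.59, -1.06, -1.27, -0.73 and -0.45. Whether matches go with the ratios was not tested. Capitals mark the matches, read 5′ to 3′ along the gene, and a match is a description of letters, not a bound site.
LOX: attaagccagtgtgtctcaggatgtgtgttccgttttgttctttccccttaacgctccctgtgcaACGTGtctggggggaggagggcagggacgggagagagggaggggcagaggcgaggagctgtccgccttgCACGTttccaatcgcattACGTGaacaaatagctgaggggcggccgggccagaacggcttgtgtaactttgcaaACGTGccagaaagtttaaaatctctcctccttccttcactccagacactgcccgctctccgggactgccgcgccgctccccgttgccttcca
LOXL1: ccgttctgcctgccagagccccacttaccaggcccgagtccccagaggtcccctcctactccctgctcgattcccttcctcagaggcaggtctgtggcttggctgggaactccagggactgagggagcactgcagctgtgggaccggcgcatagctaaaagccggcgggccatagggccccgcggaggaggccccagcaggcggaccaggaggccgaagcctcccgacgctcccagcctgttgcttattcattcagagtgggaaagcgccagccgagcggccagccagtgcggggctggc

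The summed FPKM of the 5 lysyl oxidases was 163 without and 67.9 with Bru in U251 (log2 ratio -1.26), and 82.0 and 55.5 in U87 (log2 ratio -0.56). LOXL2 held 79.0% of this sum in U251 Control and 78.3% in U251 Bru, so its share hardly moved while the sum fell. In U87 it held 51.1% and 50.8%, LOXL1 held 25.8% and 24.6%, and LOX held 14.0% and 15.6%. Within a library, the ratio of 2 genes does not depend on the library size. LOX over LOXL1, as a log2 ratio, went from -2.34 to -1.41 in U251, a change of 0.93 (interval from 0.68 to 1.17), and by 0.23 in U87 (from 0.05 to 0.41). LOXL1 over LOXL2 changed by -0.26 in U251 (from -0.40 to -0.11) and by -0.06 in U87 (from -0.21 to 0.08). LOX thus gained on LOXL1 in both lines, and LOXL1 lost on LOXL2 in U251, beyond counting error.

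Of the lysyl hydroxylases, PLOD1 was the one that fell past 2-fold. PLOD1, which hydroxylates lysine in the helical part of collagen, stood at an FPKM of 67.6 without and 28.1 with Bru in U251, and at 59.6 and 46.3 in U87. The Control libraries were close, and U251 Bru lay under the other libraries. Its log2 ratio was -1.27 in U251 (from -1.33 to -1.20) and -0.36 in U87 (from -0.42 to -0.31). PLOD2, the enzyme of the chain ends, stood at 41.3 without and 24.8 with Bru in U251, and at 23.0 and 25.1 in U87. The U251 Control library stood above the other libraries, which lay within a narrow range. PLOD2 had log2 ratios of -0.73 in U251 (from -0.79 to -0.68) and 0.13 in U87 (from 0.06 to 0.20), the only one of the 20 member ratios above 0.

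PLOD3, which besides hydroxylating lysine also transfers sugars to hydroxylysine, stood at 31.8 without and 21.7 with Bru in U251, and at 25.1 and 22.7 in U87. Its Bru libraries were close to each other, at 68.2% of Control in U251 and 90.4% in U87. The log2 ratio was -0.55 in U251 (from -0.63 to -0.48) and -0.14 in U87 (from -0.23 to -0.06). Of the exon bases of PLOD3, 7.56% overlap ZNHIT1 on the other strand.

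The promoters of PLOD1 and PLOD2 are shown because these paralogs had opposite directions in U87. That of PLOD2 (chr3:146161135-146161434, minus strand) held ACGTG 2 times and GCGTG 1 time, and that of PLOD1 (chr1:11934467-11934766, plus strand) held GCGTG 2 times and no ACGTG. The promoter of PLOD3 held neither motif. In U251 PLOD1 and PLOD2 were both lower in Bru, and whether the motifs go with the direction of change was not tested. Capitals mark the matches on either strand.
PLOD1: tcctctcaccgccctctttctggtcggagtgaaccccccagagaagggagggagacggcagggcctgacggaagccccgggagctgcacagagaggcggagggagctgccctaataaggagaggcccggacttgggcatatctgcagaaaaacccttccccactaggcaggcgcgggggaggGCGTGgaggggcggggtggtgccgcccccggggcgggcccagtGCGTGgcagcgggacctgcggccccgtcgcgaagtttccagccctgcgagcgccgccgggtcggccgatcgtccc
PLOD2: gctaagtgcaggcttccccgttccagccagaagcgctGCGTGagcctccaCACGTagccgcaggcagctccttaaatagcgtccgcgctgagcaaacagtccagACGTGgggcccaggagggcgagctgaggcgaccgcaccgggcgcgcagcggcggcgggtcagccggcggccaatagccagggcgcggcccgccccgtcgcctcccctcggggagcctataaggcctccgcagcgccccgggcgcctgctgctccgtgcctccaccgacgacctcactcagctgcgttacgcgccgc

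The share of PLOD1 in its family was lower in Bru in both lines, and that of PLOD2 was higher. In U251 PLOD1 held 48.03% of the summed FPKM of the family without and 37.6% with Bru, and in U87 it held 55.3% and 49.2%. PLOD2 went from 29.4% to 33.3% in U251 and from 21.3% to 26.7% in U87. PLOD1 over PLOD2 changed, on the log2 scale, by -0.53 in U251 (from -0.62 to -0.45) and by -0.49 in U87 (from -0.58 to -0.40). PLOD2 thus gained on PLOD1 in both lines, by changes whose intervals overlap, although its own level was lower in Bru in U251 and higher in Bru in U87. PLOD2 over PLOD3 changed by -0.18 in U251 (from -0.28 to -0.09) and by 0.27 in U87 (from 0.16 to 0.38), opposite directions in the lines. The family's summed FPKM was 141 without and 74.6 with Bru in U251 (log2 ratio -0.92), and 108 and 94.1 in U87 (log2 ratio -0.20).

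The alpha subunits of prolyl 4-hydroxylase did not pass 2-fold in either line. P4HA1 stood at an FPKM of 65.1 without and 47.6 with Bru in U251, and at 23.2 and 22.3 in U87. Both U251 libraries stood above both U87 libraries, which were nearly equal. Its log2 ratio was -0.45 in U251 (from -0.52 to -0.38) and -0.06 in U87 (from -0.17 to 0.06), and the latter was between -0.06 and 0.0015 under the other pseudocounts and scalings. The promoter of P4HA1 held ACGTG 1 time, and that of P4HA2 held neither motif.

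P4HA2 stood at an FPKM of 6.47 without and 4.69 with Bru in U251, and at 23.1 and 17.4 in U87, the reverse order of lines to P4HA1. Its exons share 548 bases with the antisense gene P4HA2-AS1, which had at most 3 reads in a library. Its log2 ratio was -0.45 in U251 (from -0.60 to -0.33) and -0.40 in U87 (from -0.48 to -0.33). P4HA1 held 91.0% of the summed FPKM of both subunits in each U251 library, but 50.1% of it without and 56.1% with Bru in U87. P4HA1 over P4HA2 changed, on the log2 scale, by 0.01 in U251 (from -0.14 to 0.16) and by 0.35 in U87 (from 0.21 to 0.49). In U251 both subunits were thus lower in Bru by ratios that did not differ beyond counting error, and in U87 P4HA2 was lower relative to P4HA1.

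The untreated lines were compared to place these levels. Of the 10 genes, 6 differed more than 2-fold between the Control libraries, where 30.4% of all genes tested did. LOXL3 and LOXL4 are among the 6 and passed the filter only through the line in which they are high. Of the other 8 genes 4 differed, beside 21.1% of the genes with a mean FPKM of 1 or more in each line. LOX, LOXL3 and P4HA2 were higher in U87, with log2 ratios of U87 to U251 of 1.19, 2.38 and 1.82. LOXL2, LOXL4 and P4HA1 were lower in U87, with log2 ratios of -1.62, -3.86 and -1.49. That of LOXL4 rests on 6 reads in U87 and was between -4.73 and -1.75 under other pseudocounts and scalings. Each family thus held genes higher in U87 and genes lower in U87, other than the lysyl hydroxylases, all 3 of which were higher in U251 by less than 2-fold. In U251 Control the order of levels began with LOXL2, PLOD1 and P4HA1, of which the last 2 did not differ beyond counting error. In U87 Control it began with PLOD1, LOXL2 and PLOD3, and the next genes P4HA1, P4HA2 and PLOD2 did not differ from their neighbours among these 3 beyond counting error. In U251 Bru no neighbours in the order were within counting error, and in U87 Bru only PLOD3 and P4HA1 were.

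Most of the genes had a lower log2 ratio in U251 than in U87. The difference of the log2 ratios, U251 minus U87, had a median of -0.45 over the 10 genes and of 0.01 over all genes tested. Its exact interval, from the 4 read numbers of a gene, lay below 0 for 7 of the 10 genes, where this was so for 24.1% of all genes tested. No member had a difference below -1, which 5.11% of all genes had. The differences were -0.90 for PLOD1 (from -0.99 to -0.82), -0.89 for LOXL1 (from -1.08 to -0.71) and -0.86 for PLOD2 (from -0.95 to -0.77). LOXL2 followed with -0.70 (from -0.79 to -0.62), and LOXL3, PLOD3 and P4HA1 had differences between -0.50 and -0.40, of which that of LOXL3 was -0.07 with a pseudocount of 1. The interval held 0 for LOX at -0.19 (from -0.44 to 0.03), for P4HA2 at -0.05 (from -0.21 to 0.10) and for LOXL4 at 0.26 with the pseudocount (without it from -1.27 to 4.60). There is no replicate to test these differences between lines. The dose of Bru may also differ between the lines, so line and dose cannot be told apart.

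With these differences, several genes that were higher in untreated U251 were not so after Bru. For PLOD2, the log2 ratio of U87 to U251 was -0.84 in the Control libraries and 0.02 in the Bru libraries. For PLOD1 it was -0.18 and 0.72, and for LOXL1 it was -0.25 and 0.64. PLOD3 went from -0.34 to 0.07. The Bru libraries of both lines were thus nearly equal in PLOD2 and PLOD3, and U87 Bru was above U251 Bru in PLOD1 and LOXL1.

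LOXL1 had the largest mean change over both lines, and the genes outside the lists whose levels ran most like its own were sought. By Euclidean distance of log2(FPKM + 0.1), centred for each gene, over the 4 libraries, the 3 nearest of 10851 protein-coding genes were ITGB1 (distance 0.162), MGAT5 (0.166) and TIMP2 (0.168). For ITGB1, the beta 1 integrin chain, Bru gave log2 ratios of -1.39 (U251) and -0.56 (U87). MGAT5, a glycosyltransferase that branches N-glycans, had log2 ratios of -1.30 and -0.55, and TIMP2, an inhibitor of metalloproteinases, had -1.28 and -0.64. Among the members, the nearest to LOXL1 was PLOD1 (distance 0.272), and PLOD2 and PLOD3 were nearest to each other (0.361). With 4 libraries this likeness is a description.

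The genes that work beside these enzymes were described in the same way, from lists chosen by function. These lists were chosen with earlier results of these data known, so their counts are a description and not a test. Of 16 partners in the endoplasmic reticulum, 15 passed the filter, 13 of these were lower in U251 Bru than in Control and all 15 were lower in U87 Bru, beside 52.1% and 56.7% of all genes tested. The counting interval held 0 for P3H2 in U251, and in U87 for TMEM38B (log2 ratio -0.01), MIA3 (-0.10) and COLGALT2 (-0.13). The medians of the 15 were -0.61 in U251 and -0.28 in U87, and 4 of them fell past 2-fold in U251 and none in U87, beside 5.44% and 1.41% of all genes tested. P4HB, the subunit that P4HA1 and P4HA2 share, stood at 193 without and 78.6 with Bru in U251, and at 134 and 89.9 in U87, with log2 ratios of -1.29 and -0.58. In both lines the log2 ratio of P4HB was thus lower than that of either alpha subunit. COLGALT1, which adds galactose to hydroxylysine, had log2 ratios of -1.17 and -0.35, P3H4, a scaffold of lysyl hydroxylation, had -1.20 and -0.53, and FKBP10, a prolyl isomerase that acts with PLOD2, had -1.06 and -0.25. TMEM38B at 0.37 and MIA3 at 0.27 were the 2 partners higher in U251 Bru. Of 8 procollagen proteinases and enhancers, 4 passed the filter, with medians of -0.41 and -0.25. All 4 were lower in Bru in both lines, beside 52.1% and 56.7% of all genes tested. The counting interval held 0 for PCOLCE2 in both lines, at log2 ratios of -0.01 and -0.20, and for ADAMTS3 in U87. None of the 4 passed 2-fold, beside 5.44% and 1.41% of all genes tested that fell past it. The largest mean changes were those of PCOLCE, at -0.60 and -0.58, of ADAMTS3, at -0.66 and -0.27, and of BMP1, at -0.22 and -0.24.

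The collagens, elastin and microfibril proteins listed beside the enzymes were mostly lower too, though not every gene of this list is an established substrate. Of 12 such genes, 8 passed the filter, and 8 of these were lower in U251 Bru and 7 in U87 Bru (52.1% and 56.7% of all genes tested), with medians of -1.25 in U251 and -0.43 in U87. In U251, 5 fell past 2-fold, and in U87, 2 did, where 5.44% and 1.41% of all genes tested fell that far. COL4A1 passed the filter only through its level in U251 and COL1A1 only through its level in U87, and each is counted as a fall in that line. The counting interval held 0 for COL4A1, COL4A2 and EFEMP2 in U87. COL1A2, a chain of type I collagen, fell in both lines, its FPKM being 133 and 42.4 in U251 and 23.5 and 5.64 in U87, with log2 ratios of -1.64 and -2.04. COL1A1, its partner chain, was at 0.981 and 0.665 in U251 and fell from 21.1 to 9.31 in U87, a log2 ratio of -1.17. The type V chains COL5A1 and COL5A2 had log2 ratios of -1.44 and -1.39 in U251 and of -0.70 and -0.35 in U87. The basement membrane chains COL4A1 and COL4A2 had -1.28 and -1.23 in U251 and -0.18 and -0.06 in U87, where their levels were low. In U251 the tested genes of this list thus had a lower median than the 10 enzymes, and elastin (ELN) itself did not exceed an FPKM of 0.105 in any library.

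Hypoxia-inducible genes were listed because members, LOX, PLOD2 and P4HA1 among them, belong to this group by background knowledge. Of 15 others, 14 passed the filter. Their median was -0.01 in U251, where 7 of 14 were below 0, beside 52.1% of all genes tested. In U87 their median was 0.29, and 1 of 14 was below 0, beside 56.7% of all genes tested. The counting interval held 0 for ANKRD37 and CA12 in U251, and for SLC2A1, PGK1 and ANKRD37 in U87. The medians of all genes tested were -0.03 in U251 and -0.04 in U87. CA9, a carbonic anhydrase, was the only one past 2-fold, lower in U251 Bru, where 5.44% of all genes tested fell that far. Its FPKM was 31.5 without and 14.3 with Bru in U251 (log2 ratio -1.13), and 1.19 and 2.20 in U87 (log2 ratio 0.83). NDRG1, a stress-induced gene, had log2 ratios of 0.50 and 0.56, and ADM, the gene of the peptide adrenomedullin, had 0.60 and 0.36. Beside these genes, PLOD2 at -0.73 and 0.13 lay below the list's median in both lines, as did LOX at -0.59 and -0.40 and P4HA1 at -0.45 and -0.06. This was not particular to them, since all 10 enzymes lay below it, the highest being at -0.28 in U251 and 0.13 in U87.

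**Figure D3:**
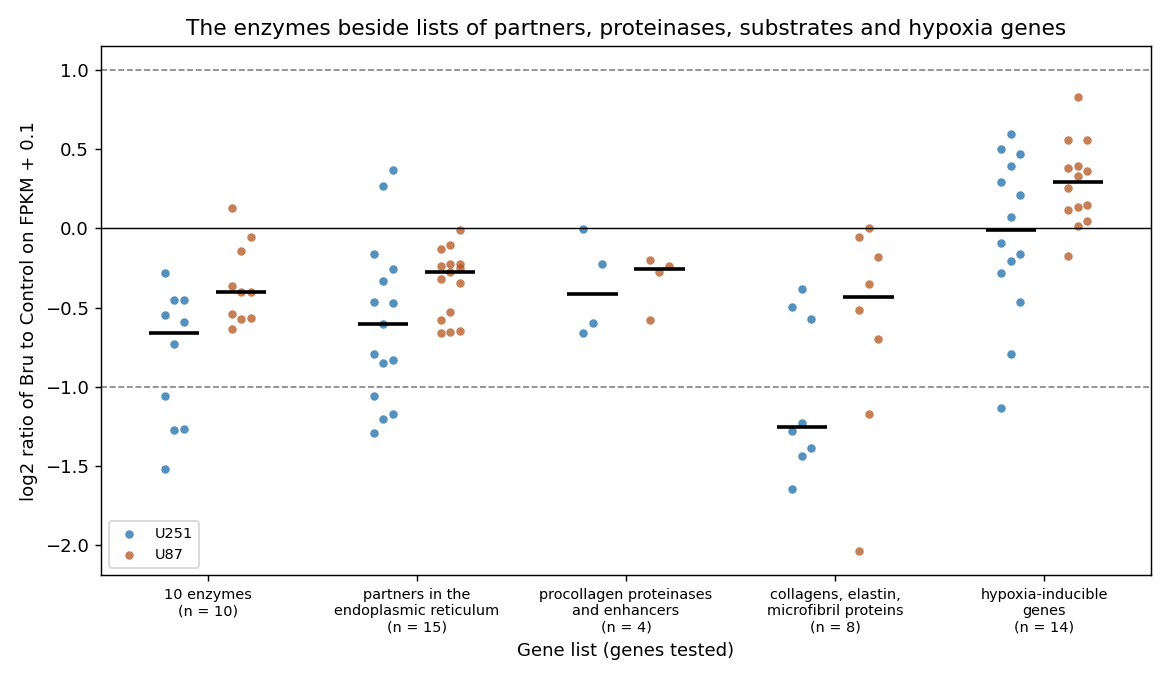
Log2 ratio of Bru to Control, with 0.1 added to each FPKM (vertical axis), for the 10 enzymes and for the genes tested of 4 lists, in U251 (blue) and U87 (orange), with a black bar at each median and dashed lines at 2-fold. In U251 the enzymes have a median of -0.66, their endoplasmic reticulum partners -0.61, the collagens, elastin and microfibril proteins -1.25 and the hypoxia-inducible genes -0.01.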

How the data were processed

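RNA-seq libraries of U251 and U87, Control and Bru, were compared, 1 per condition. The authors deposited FPKM per gene with gene lengths and coordinates. The submitters' processing notes name HISAT2 2.0.5, StringTie 1.3.3b, featureCounts 1.5.0-p3, DESeq2 1.16.1 and the build hg18, whereas coordinates and lengths of all 58735 genes equal those of GENCODE release 29 on GRCh38. Whether strand was used in counting is not given in the sources used here. FPKM multiplied by length was a whole multiple of 1 step per library for 100% of values above 0 (largest deviation 4.35e-05 reads, tolerance 0.01), which gave the reads and the library sizes inside the FPKM, 17406238 to 20974002.

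Ratios used FPKM + 0.1 and the 12949 genes whose mean FPKM was 1 or more. Calls were absolute log2 ratios above 1, without a test. Intervals were 95% exact Clopper-Pearson intervals of a gene's reads, or exact conditional intervals of the odds ratio for differences of ratios, at the library sizes inside the FPKM. Reads carry no molecular identifiers, so intervals and the floor of 3 reads cover counting error only. The members and lists were chosen with earlier results of these data known. All 10 members were named, and of other lists the genes past 2-fold or the 3 of largest mean absolute log2 ratio. TMEM38B, MIA3, ELN and the list genes named because a counting interval held 0 were named after their values were seen. Alternatives were other pseudocounts, filters and scalings and an exact test of the reads under negative binomial error with an assumed coefficient of variation of 0.2. The scripts were tested on simulated data. Python 3.11.15, NumPy 2.4.6, pandas 2.3.3 and SciPy 1.17.1 were used.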

Additional observations from a re-analysis of the deposited data

Results flagged for a closer look

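PLOD2 was lower in Bru in U251, with a log2 ratio of -0.73, and higher in Bru in U87, with a log2 ratio of 0.13, and both counting intervals excluded 0. Its direction in each line was the same under all pseudocounts and scalings tried, from -0.75 to -0.65 in U251 and from 0.12 to 0.18 in U87. With 1 library per condition, this difference between the lines was not tested against replicate error, and line and dose cannot be told apart.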

How the results depend on the processing

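The number of genes past 2-fold in U251 was 3 or 4 under 11 alternatives. It was 3 with a pseudocount of 1, with a minimum mean FPKM of 5 (8 genes left), with the 75th percentile set equal and with the total of recovered reads as library size, which was chosen after seeing the data. In U87 it was 1 with a pseudocount of 0.01, which LOXL4 with 6 and 2 reads passed, and 0 under the other 10 alternatives. With the negative binomial exact test added to the fold, 4 genes passed in U251 and 0 in U87. Its coefficient of variation is assumed, no replicate measures it, and it gives the counts no support. Among genes with a mean FPKM of 1 or more, the test was paired with a 2-fold cut taken without a pseudocount. This gave 602 lower genes of 12851 with a read in U251 and 99 of 12811 in U87. The 2-fold cut on ratios with the pseudocount of 0.1, without the test, gave 705 and 183 of 12949. The median log2 ratio of the 10 genes was -0.54 in U251 with a pseudocount of 1 and between -0.68 and -0.58 under the others, and it was between -0.41 and -0.34 in U87. Of the 20 log2 ratios of single genes, that of P4HA1 in U87 changed sign under an alternative, and so did the difference between lines of LOXL4. The difference of LOXL3 between lines, -0.50, was -0.07 with a pseudocount of 1. No paired analysis was possible because each condition has 1 library, and for the same reason no library could be left out. Depth limits LOXL4 in U87 and LOXL3 in U251.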

Other observations

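Genes that share at least 100 exon bases with a member, and had over 100 reads in each library, had the following levels. LOXL1-AS1 stood at an FPKM of 4.29 without and 3.98 with Bru in U251, and at 8.85 and 7.45 in U87. DOK1, which overlaps LOXL3, was at 3.61 and 3.38 in U251 and at 15.7 and 12.9 in U87. HTRA2, which also overlaps LOXL3, was at 4.97 and 4.96 in U251 and at 11.1 and 12.5 in U87. SRFBP1, which shares 138 bases with LOX, went from 5.16 to 10.4 in U251 and from 6.69 to 8.70 in U87. ZNHIT1, which overlaps PLOD3, was at 17.5 and 18.3 in U251 and at 11.2 and 9.96 in U87. ENTPD4, on the same strand as LOXL2 and sharing 120 bases with it, went from 19.8 to 12.8 in U251 and from 20.7 to 16.1 in U87.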
